A study of Mus musculus with 10 samples.

Results

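The regulatory T cell genes described here are 8 genes, Foxp3, Il2ra, Il2rb, Ikzf2, Ikzf4, Tnfrsf18, Tnfrsf4 and Nt5e, of the 18193 genes with a symbol of their own on the array. Every probe set carrying one of these symbols alone in the platform annotation was taken, which gave 16 of the 45037 probe sets measured. The rule that selects them uses symbols and no measured value, although the genes were proposed with earlier results of these data known. The study asked how age affects susceptibility to proteoglycan (PG)-induced arthritis, an autoimmune joint disease of BALB/c mice immunized with cartilage PG. All 10 mice were female BALB/c, all had received PG in the adjuvant DDA intraperitoneally, and RNA from a piece of each spleen was hybridized to 1 Affymetrix array per mouse. The old arthritic group held 2 mice, both 9 months of age, and the old non-arthritic group held 2 mice of 7 and 5 months. The young arthritic group held 2 mice of 5 and 4 months, and the young non-arthritic group held 4 mice of 3, 3, 2 and 1 months. The arthritic mice averaged 6.75 months and the non-arthritic mice 3.5 months, so arthritis and age went together. Therefore, 1 pooled arthritis difference over all 10 mice is also given at equal age, from a fit with a straight line in age. The arthritis differences within old and within young mice are not adjusted for age, although the arthritic mice were the older ones in both. All groups were immunized, and naive mice were not analysed here. The study counted age at the first PG injection for its age groups, and the array labels do not say which age they give.

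Regulatory T cells (Tregs) are CD4+ T cells that restrain other immune cells, and they depend on the transcription factor FoxP3. They carry a high-affinity receptor for interleukin 2 (IL-2), whose alpha chain, CD25, is encoded by Il2ra and whose beta chain, CD122, is encoded by Il2rb. The Ikaros family factors Helios (Ikzf2) and Eos (Ikzf4), the receptors GITR (Tnfrsf18) and OX40 (Tnfrsf4), and the ectoenzyme CD73 (Nt5e), which makes adenosine, are common features of Tregs. Apart from FoxP3, none of these products is restricted to Tregs: CD25, GITR and OX40 also appear on activated T cells, CD122 is abundant on natural killer (NK) cells and memory CD8+ T cells, and CD73 is found on B cells and many other cells.

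Foxp3 and Il2ra encode the pair of proteins by which Tregs are usually gated, and both genes depend on T cell receptor signals that act through NFAT and other factors. The bases just upstream of their starts are shown to give their sequence context. Each sequence is the 250 bases before a RefSeq start on GRCm38.p6, written 5′ to 3′ along the gene, for Foxp3 at chrX:7579426-7579675 (plus strand, the first of 2 listed starts) and for Il2ra at chr2:11642542-11642791 (plus strand). Capitals mark the letters GGAAA, the core of NFAT sites, on either strand, which here read TTTCC.
Foxp3: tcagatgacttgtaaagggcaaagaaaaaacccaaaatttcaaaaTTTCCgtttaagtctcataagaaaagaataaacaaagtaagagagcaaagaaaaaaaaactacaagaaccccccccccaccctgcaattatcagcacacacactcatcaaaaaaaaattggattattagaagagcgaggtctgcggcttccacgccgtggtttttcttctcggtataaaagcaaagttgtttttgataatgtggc
Il2ra: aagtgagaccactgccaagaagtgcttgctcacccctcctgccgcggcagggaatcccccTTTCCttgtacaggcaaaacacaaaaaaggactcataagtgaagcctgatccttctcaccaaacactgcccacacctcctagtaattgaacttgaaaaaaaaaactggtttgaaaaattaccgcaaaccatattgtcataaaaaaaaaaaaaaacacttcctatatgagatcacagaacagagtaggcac
Each window held 1 match to the NFAT core, which 55.6% of the 32851 RefSeq promoter windows of the same length hold. Neither window held the Ikaros family core TGGGAA (in 21.6% of windows), the Runx motif TGTGGT (14%), the Stat motif TTCNNNGAA (7.02%), the AP-1 motif TGANTCA (6.75%) or the forkhead motif TGTTTAC (3.17%), on either strand. The window of the second listed Foxp3 start, which is not shown, held 1 match to the NFAT core and 1 to the Stat motif. These matches describe the letters only, and no binding was measured. Of the 8 genes, 5 had an entry among the promoter sequences used here. Il2rb, Ikzf2 and Ikzf4 had none.

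All values are log2 signals made by RMA, which corrects, normalizes and summarizes the probes of a probe set, so that a difference of 1 is a doubling. The medians of the arrays lay between 6.88 and 6.96. Of the 16 probe sets, 8 lay above their array's median in every mouse and 8 lay below it in every mouse. Il2rb (2 probe sets), Ikzf2 (2 of 3), Tnfrsf18 (1), Tnfrsf4 (1) and Nt5e (2 of 3) had probe sets above the median. The single Foxp3 probe set, both Il2ra probe sets and all 3 Ikzf4 probe sets were below it, as were 1 Ikzf2 and 1 Nt5e probe set. Relative to the array median, Foxp3 lay at -1.48 to -0.69 on the log2 scale. In whole spleen the gene that defines Tregs was thus read in the dimmer part of the array, where fold changes are compressed. Signals of different probe sets depend on their probes, so the levels of different genes were not ranked against each other. A probe set entered the main fit if it was above the array median on at least 2 arrays, which kept 23805 probe sets, and the 8 dim ones are given from the same fit over all 45037.

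**Figure D1:**
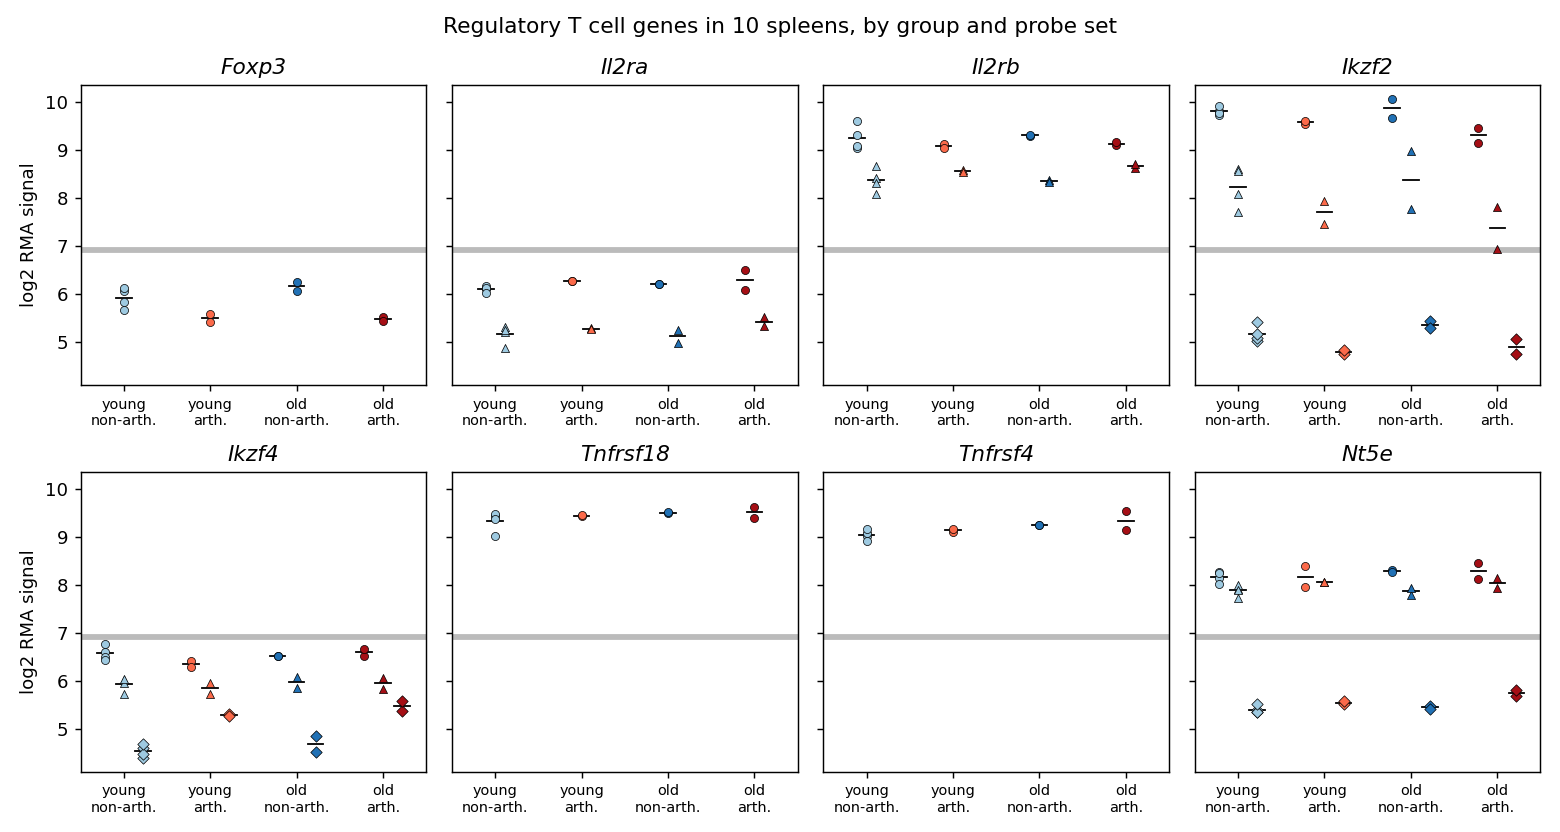
Log2 RMA signal (vertical axis) of each of the 16 probe sets in each of the 10 spleens, with 1 panel per gene and the 4 groups along the horizontal axis. Each symbol shape is 1 probe set, each point 1 mouse and each black line a group mean, and the grey band spans the array medians of 6.88 to 6.96. Foxp3, Il2ra and Ikzf4 lie under the band in every mouse, and the arthritic mice have the lower Foxp3 points.

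Arthritic spleens had lower Foxp3 than non-arthritic spleens, and higher signal from 1 of the 3 Ikzf4 probe sets. All 3 probe sets of Ikzf2 read lower in arthritic mice, but only the dimmest passed the test. Il2ra, Il2rb, Tnfrsf18, Tnfrsf4 and Nt5e did not pass it in any comparison. At equal age, limma called 0 of the 8 bright probe sets at an adjusted p under 0.05 (1 at an unadjusted p under 0.05), where 2.26% of the 23805 kept probe sets were called. Over all 45037 probe sets it called 3 of the 16, where 12.2% of all probe sets were called. All 3 were among the 8 dim ones, and 17.7% of the 21232 dim probe sets of the array were called. In old mice it called 0 of 8 bright probe sets (1 at the unadjusted level) against 0.0714% of those kept. It called 2 of 16, both among the 8 dim ones, against 5.06% of all and 8.05% of the dim ones. In young mice it called 0 of 8 (0 unadjusted) against 0.311% of those kept. It called 1 of 16, a dim one, against 7.07% of all and 11.7% of the dim ones. These counts are small and were not tested against the shares of the array, so nothing particular to the set is read from them. The median difference at equal age was -0.03 for the 16 probe sets and 0.05 for all probe sets.

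Foxp3 (probe set 1420765_a_at) read 5.52 and 5.44 in the old arthritic mice and 6.07 and 6.26 in the old non-arthritic mice. It read 5.58 and 5.42 in the young arthritic mice, and 5.84, 6.07, 5.68 and 6.12 in the young non-arthritic mice. Every arthritic mouse was below every non-arthritic mouse, the closest values being 5.58 and 5.68. Such a complete separation downwards was seen for 5.12% of all probe sets and 8.93% of the dim ones. The mean was 5.49 ± 0.08 (SD, n = 4) in arthritic and 6.01 ± 0.21 (n = 6) in non-arthritic mice. At equal age Foxp3 was lower by a log2 difference of -0.58 ± 0.13 (SE; 95% interval -0.87 to -0.29; adjusted p = 0.0181, limma over all probe sets), or 0.669 times the non-arthritic signal. Among dim probe sets 9.26% were called lower in that comparison. In bulk tissue fewer Tregs and less Foxp3 RNA per Treg cannot be told apart.

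The Foxp3 difference was -0.68 ± 0.15 in old mice (adjusted p = 0.036) and -0.43 ± 0.13 in young mice, which did not pass the test (adjusted p = 0.0781). The difference between these effects, -0.25 with a 95% interval of -0.70 to 0.20, did not pass either (adjusted p = 1). The 2 old arthritic mice and the 2 young arthritic mice had similar values, and the 2 old non-arthritic mice had a mean of 6.16 against 5.93 in the 4 young ones. The call at equal age rested on few animals. It was lost without old non-arthritic replicate 1 (adjusted p = 0.0926), old non-arthritic replicate 2 (0.0503) or young arthritic replicate 2 (0.112), while the difference stayed between -0.65 and -0.50 whichever mouse was left out. The call in old mice was lost without old arthritic replicate 2 (adjusted p = 0.157), old non-arthritic replicate 1 (0.0983) or 2 (0.199), or young arthritic replicate 1 or 2 (0.0551 each), and that in young mice was gained without young non-arthritic replicate 3 (0.0444).

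Ikzf2 encodes Helios, a zinc finger factor of the Ikaros family present in most thymus-derived Tregs. Its brightest probe set, 1437542_at, read 9.47 and 9.14 in old arthritic, 9.66 and 10.07 in old non-arthritic, 9.55 and 9.60 in young arthritic, and 9.81, 9.73, 9.77 and 9.92 in young non-arthritic mice. All 4 arthritic mice (9.44 ± 0.20) were below all 6 non-arthritic mice (9.83 ± 0.15), by a narrow margin between 9.60 and 9.66, as in 5.12% of all probe sets. Of the 2305 probe sets so separated 1896 were dim, so the share was lower among bright ones such as this. The fitted differences were -0.56 ± 0.15 in old mice (adjusted p = 0.129), -0.24 ± 0.13 in young mice (0.362) and -0.28 ± 0.12 at equal age (95% interval -0.55 to -0.00; 0.214), none of which passed the test. Leaving out old arthritic replicate 1 made the old comparison pass (adjusted p = 0.0429).

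The second bright Ikzf2 probe set, 1456956_at, was the most variable of the 16. It ranged from 6.94 in old arthritic replicate 2 to 8.98 in old non-arthritic replicate 2, and its groups overlapped. The other values were 7.81 in old arthritic replicate 1, 7.77 in old non-arthritic replicate 1, 7.94 and 7.46 in young arthritic mice, and 8.08, 7.72, 8.60 and 8.57 in young non-arthritic mice. Its difference at equal age was -0.54 ± 0.34 (95% interval -1.29 to 0.21; adjusted p = 0.359). The dim probe set 1421643_at read 4.76 and 5.06 in old arthritic, 5.44 and 5.30 in old non-arthritic, 4.75 and 4.85 in young arthritic, and 5.04, 5.09, 5.43 and 5.16 in young non-arthritic mice. Its groups overlapped only through old arthritic replicate 2 and young non-arthritic replicate 1. At equal age it was lower by -0.49 ± 0.12 (adjusted p = 0.0261), a call that was lost without old non-arthritic replicate 1 (adjusted p = 0.158) or 2 (0.0639), or young arthritic replicate 1 (0.0932) or 2 (0.094). The 3 Ikzf2 probe sets thus pointed the same way in the old, the young and the equal-age comparison, and the only one that passed was the dim one.

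Ikzf4 encodes Eos, a relative of Helios that works with FoxP3 in silencing genes. Its probe set 1460664_at read 5.38 and 5.59 in old arthritic, 4.86 and 4.52 in old non-arthritic, 5.30 and 5.27 in young arthritic, and 4.39, 4.61, 4.47 and 4.69 in young non-arthritic mice. All arthritic mice (5.38 ± 0.14, n = 4) were above all non-arthritic mice (4.59 ± 0.17, n = 6), a separation shown by 12.2% of all probe sets and 14.3% of the dim ones. The differences of 0.79 ± 0.14 in old mice (adjusted p = 0.0181), 0.74 ± 0.12 in young mice (0.0101) and 0.66 ± 0.11 at equal age (0.00479) all passed the test. The equal-age call held whichever mouse was left out, with differences of 0.62 to 0.76 and adjusted p-values of 0.00366 to 0.0449. The call in old mice was lost without old arthritic replicate 2 (adjusted p = 0.109), old non-arthritic replicate 1 (0.0516) or 2 (0.131), and that in young mice without young arthritic replicate 1 (0.0865) or 2 (0.105).

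The other Ikzf4 probe sets did not follow. Probe set 1457342_at, the brightest of the 3, read 6.52 and 6.67 in old arthritic, 6.51 and 6.52 in old non-arthritic, 6.41 and 6.29 in young arthritic, and 6.77, 6.61, 6.50 and 6.44 in young non-arthritic mice. Its difference at equal age was -0.17 (95% interval -0.40 to 0.06; adjusted p = 0.298), opposite in sign to that of 1460664_at. Probe set 1438274_at ranged from 5.72 to 6.09 over the 10 mice, with a difference of -0.11 (interval -0.36 to 0.14; adjusted p = 0.558). Both intervals exclude the 0.66 measured by 1460664_at. Since 3 dim probe sets of 1 gene disagreed, no direction is given for Ikzf4 as a gene.

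Il2ra and Il2rb encode the alpha and beta chains of the IL-2 receptor. The brighter Il2ra probe set, 1420692_at, read 6.08 and 6.51 in old arthritic, 6.22 and 6.22 in old non-arthritic, 6.27 and 6.28 in young arthritic, and 6.10, 6.17, 6.12 and 6.03 in young non-arthritic mice. Both young arthritic mice were above all young non-arthritic mice, a separation whose share over all probe sets was not counted. The 4 arthritic and 6 non-arthritic mice overlapped, and the difference at equal age was 0.08 (95% interval -0.14 to 0.31; adjusted p = 0.627). The dimmer probe set, 1420691_at, ranged from 4.88 to 5.52, with a difference of 0.11 (interval -0.14 to 0.37; adjusted p = 0.556). Both intervals lie above the Foxp3 difference of -0.58 and above its own 95% interval of -0.87 to -0.29, but the 2 genes were not tested against each other. Both Il2ra probe sets were dim, where fold changes are compressed, so they do not show whether Il2ra RNA fell.

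Il2rb was bright on both probe sets, and these disagreed in sign. Probe set 1448759_at read 9.10 and 9.16 in old arthritic, 9.30 and 9.31 in old non-arthritic, 9.13 and 9.05 in young arthritic, and 9.32, 9.60, 9.04 and 9.09 in young non-arthritic mice. Probe set 1417546_at read 8.64 and 8.71, then 8.37 and 8.34, then 8.58 and 8.55, and 8.42, 8.68, 8.09 and 8.31 in the same groups and order. The arthritic mice were on the lower side in the first and on the higher side in the second. The 2 old arthritic and 2 old non-arthritic mice did not overlap in either probe set, while the young mice, and all 4 arthritic against all 6 non-arthritic mice, did. The share of all probe sets with such a separation between 2 and 2 mice was not counted. At equal age the differences were -0.24 ± 0.12 (adjusted p = 0.274) and 0.19 ± 0.12 (0.376). The signs were opposite in old mice (-0.18 and 0.32) and in young mice (-0.17 and 0.19) as well, and none of these passed the test.

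Tnfrsf18 (GITR) and Tnfrsf4 (OX40) encode costimulatory receptors of the TNF receptor superfamily and are neighbours on mouse chromosome 4. Tnfrsf18 (1422303_a_at) read 9.39 and 9.62 in old arthritic, 9.50 and 9.51 in old non-arthritic, 9.42 and 9.46 in young arthritic, and 9.43, 9.48, 9.02 and 9.37 in young non-arthritic mice. Tnfrsf4 (1420351_at) read 9.14 and 9.53, then 9.25 and 9.25, then 9.11 and 9.16, and 9.01, 9.07, 8.92 and 9.16 in those groups. Old arthritic replicate 2 had the highest value of both genes and young non-arthritic replicate 3 the lowest. The equal-age differences were -0.01 for each, with 95% intervals of -0.28 to 0.25 (adjusted p = 0.956) for Tnfrsf18 and -0.25 to 0.24 (0.98) for Tnfrsf4. At equal age, changes with arthritis beyond about 0.28 on the log2 scale in either direction are outside both intervals. The intervals within an age group were wider. For Tnfrsf18 they were -0.34 to 0.35 in old and -0.18 to 0.42 in young mice. For Tnfrsf4 they were -0.21 to 0.39 in old and -0.16 to 0.36 in young mice.

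Nt5e encodes CD73, which turns AMP into adenosine. Probe set 1422974_at read 8.11 and 8.46 in old arthritic, 8.31 and 8.27 in old non-arthritic, 7.96 and 8.39 in young arthritic, and 8.26, 8.14, 8.01 and 8.25 in young non-arthritic mice. The paired values of the old and of the young arthritic mice straddled those of the non-arthritic mice, and the equal-age difference was -0.05 (95% interval -0.33 to 0.24; adjusted p = 0.856). Probe set 1428547_at ranged from 7.73 to 8.15, with a difference of 0.17 ± 0.09 (adjusted p = 0.298), and the dim 1459023_at from 5.36 to 5.82, with a difference of 0.15 (adjusted p = 0.262). Taken over both ages, the 4 arthritic and 6 non-arthritic mice overlapped in all 3 probe sets. Within an age, both young arthritic mice were above all young non-arthritic mice in 1428547_at, and both old arthritic mice were above both old non-arthritic mice in 1459023_at. The share of all probe sets with such separations in groups this small was not counted, and nothing is read from them.

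**Figure D2:**
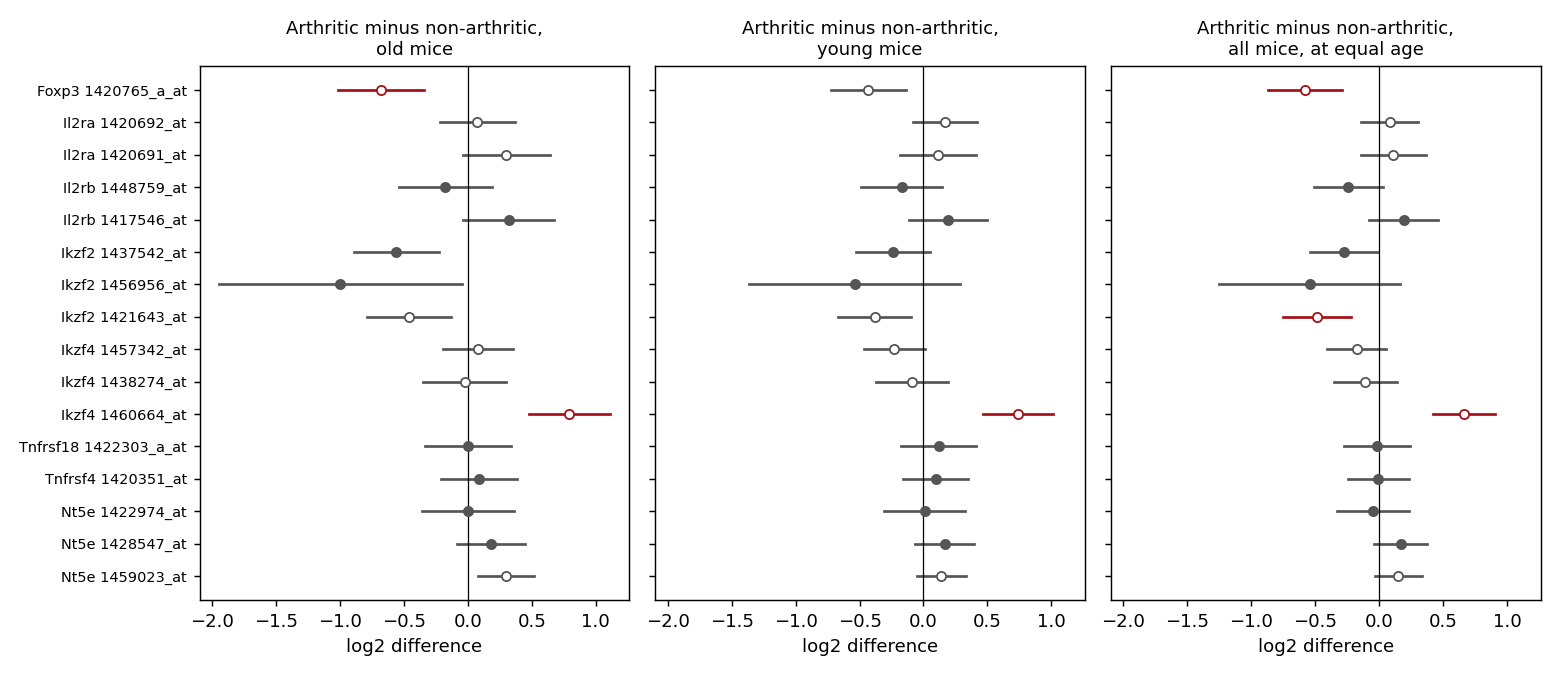
Log2 difference between arthritic and non-arthritic mice (horizontal axis) with its 95% interval from the fit over all probe sets, for the 16 probe sets (vertical axis) in old mice, in young mice and in all mice at equal age. Filled points are probe sets above the array median, open points those below it, and red marks an adjusted p under 0.05. Foxp3 lies at -0.68, -0.43 and -0.58 and Ikzf4 1460664_at at 0.79, 0.74 and 0.66, while the other 2 Ikzf4 probe sets lie near 0.

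Age was compared in the non-arthritic mice, 2 old against 4 young, and as a slope per month over all 10 mice at equal arthritis status. No regulatory T cell probe set passed either test. Limma called 0 of the 8 bright probe sets and 0 of all 16 in the group comparison (none at the unadjusted level), as it did for 0% of those kept and 0% of all probe sets, although 759 kept probe sets had an unadjusted p under 0.05. For the slope it also called 0 of 8 and 0 of 16 (none unadjusted), against 0.0042% of those kept and 0.00222% of all. The interaction test, which asks if arthritic and non-arthritic mice were further apart in one age group than in the other, called 0 of 8 and 0 of 16 (none unadjusted), against 0% and 0%.

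Foxp3 was 0.24 ± 0.13 higher in old than in young non-arthritic mice by the fitted value, with overlapping groups and an interval of -0.06 to 0.53 (adjusted p = 0.998), and its slope was 0.02 ± 0.02 per month (adjusted p = 0.782). In 4 of the 16 probe sets, those of Tnfrsf18, Tnfrsf4, Nt5e (1422974_at) and Il2ra (1420692_at), both old non-arthritic mice were above all 4 young non-arthritic mice, a pattern seen in 6.58% of all probe sets. The differences were small, 0.18 ± 0.13 for Tnfrsf18 and 0.21 ± 0.11 for Tnfrsf4 (adjusted p = 0.997 each), 0.12 for Nt5e and 0.12 for Il2ra. The slope of Tnfrsf4 was 0.04 ± 0.02 per month (adjusted p = 0.526), that of Tnfrsf18 0.03 ± 0.02 (0.608), and that of Ikzf2 (1437542_at) -0.03 ± 0.02 (0.59). With the 6 non-arthritic mice alone, the slopes were 0.04 for Foxp3, 0.04 for Tnfrsf4, 0.05 for Tnfrsf18 and -0.01 for Ikzf2 (1437542_at), with an adjusted p of 1 each.

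**Figure D3:**
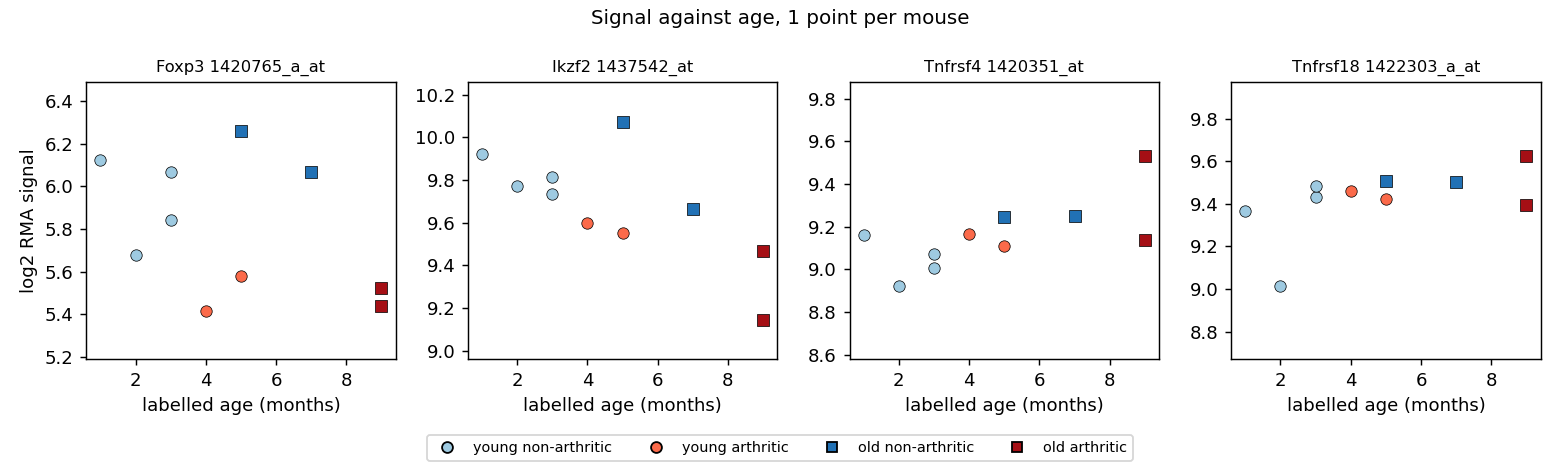
Log2 RMA signal (vertical axis, spanning the same range in each panel) against the labelled age in months (horizontal axis) for Foxp3, Ikzf2, Tnfrsf4 and Tnfrsf18, with 1 point per mouse, circles for young and squares for old mice, and blue for non-arthritic and red for arthritic mice. The arthritic mice of 4 to 9 months have the lowest Foxp3 values, and the non-arthritic mice of 5 and 7 months, at 6.26 and 6.07, are among the highest.

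Other genes of the same pathways were read from lists in which each gene stood for its brightest kept probe set, and 0 genes of any list passed the test in any comparison. Of 30 further genes associated with Tregs, 23 were kept, with a median equal-age difference of 0.02 against 0.09 for all kept probe sets. At an unadjusted p under 0.05, 3 were higher and 1 lower in arthritic mice, where 22.9% of all kept probe sets had such a p in either direction, so the list did not stand out. In old mice their median difference was -0.08, against 0.05 for all kept probe sets, and Klrg1, an inhibitory receptor of effector Tregs and of NK cells, had the smallest p (-0.53 ± 0.20, adjusted p = 0.206). In young mice the median was 0.08, against 0.09 for all kept probe sets. At equal age S100a4 and S100a6, calcium-binding proteins that myeloid cells also make, had the smallest p, with differences of 0.36 and 0.45 (adjusted p = 0.104 and 0.137). Of 15 genes of IL-2 and IL-15 signalling, 13 were kept, with a median of 0.10, and 1 was higher at the unadjusted level. In young mice Il7r, the receptor of interleukin 7 that Tregs carry at low levels, had a difference of 0.26 ± 0.09 (adjusted p = 0.187). The gene at equal age was Il15ra, the private chain of the IL-15 receptor, at 0.17 (adjusted p = 0.19). Of 17 genes for FoxP3 partners and the Ikaros family, 16 were kept, with a median of 0.03 and none at the unadjusted level. In old mice the chromatin organizer Satb1 had the smallest p of these, at -0.50 ± 0.15 (adjusted p = 0.141).

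Of 12 genes of TNF family costimulation, 6 were kept, with a median equal-age difference of -0.02 and none at the unadjusted level. In old mice the adaptor Traf1, which binds OX40 and GITR, had a difference of -0.30 (adjusted p = 0.236). Of 11 genes that handle purines around CD73, 7 were kept. Their median equal-age difference was 0.24, and 4 of the 7 were higher at the unadjusted level, where 22.9% of all kept probe sets had such a p in either direction. The cytosolic nucleotidase Nt5c2 (0.25 ± 0.08, adjusted p = 0.113) and the purine nucleoside phosphorylase Pnp (0.24 ± 0.08, adjusted p = 0.122) had the smallest p. List genes with no probe set carrying their symbol alone in the annotation used here, such as Lrrc32, Tigit and Il2rg, were not analysed here.

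Markers of other cells of the spleen are given beside these results, and none of them passed the test in any comparison. The mean signal of 13 T cell markers was 9.98 and 9.93 in old arthritic, 10.11 and 10.20 in old non-arthritic, 10.22 and 10.25 in young arthritic, and 10.36, 10.35, 9.95 and 10.27 in young non-arthritic mice. It was thus lower in both old arthritic mice than in both old non-arthritic mice, while the young arthritic mice, which had low Foxp3, lay within the range of the young non-arthritic mice. The median arthritic minus non-arthritic difference of the T cell markers was -0.17 among old and 0.01 among young animals, and 0.02 at equal age. Young non-arthritic replicate 3, the lowest of its group in T cell markers, was also its lowest in Foxp3. The part of T cell content in the Foxp3 values was not tested.

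The mean signal of 6 NK cell markers was 9.06 and 8.62 in old arthritic, 9.54 and 9.58 in old non-arthritic, 9.36 and 9.36 in young arthritic, and 9.82, 9.86, 9.20 and 9.32 in young non-arthritic mice. The 2 mice with the highest NK marker signal also had the highest signal of Il2rb probe set 1448759_at, 9.32 and 9.60. The lower of these was close to the 9.31 of old non-arthritic replicate 2. The other Il2rb probe set, 1417546_at, was highest (8.71) in old arthritic replicate 2, the mouse with the lowest NK marker signal. It was next highest (8.68) in young non-arthritic replicate 2, the mouse with the highest NK marker signal. In old mice 4 of the 6 NK markers were lower at the unadjusted level, with a median of -0.72, where 18.6% of all kept probe sets had such a p in either direction. Neutrophil markers had the opposite sign, with a median of 1.01 at equal age and 8 of 8 higher at the unadjusted level. Of all kept probe sets 22.9% had such a p in either direction. In old mice 8 of 8 were higher (median 1.16), in young mice 0 of 8 (median 0.40). Between non-arthritic mice, 7 of 8 were lower in old than in young ones (median -0.90). The neutrophil mean ranged from 13.4 to 13.7 in old arthritic, 12.4 to 12.6 in old non-arthritic, 13.4 to 13.98 in young arthritic and 12.8 to 13.6 in young non-arthritic mice. The mean of 7 B cell markers lay between 11.3 and 11.6 in all 10 spleens. At equal age the median differences were 0.01 for these, 0.32 for 7 plasma cell markers, 0.05 for 8 macrophage markers, 0.21 for 5 erythroid markers, -0.05 for 5 dendritic cell markers and 0.10 for 3 markers of activated T cells (Icos, Cd44 and Cd69). The part of these cells in the values of the regulatory T cell genes was not tested.

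**Figure D4:**
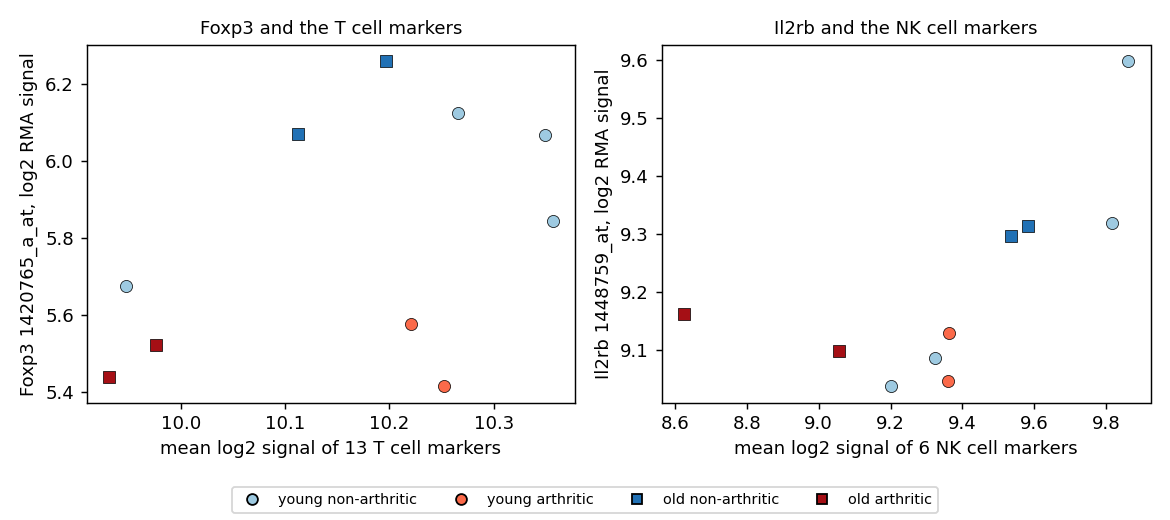
Left, log2 RMA signal of Foxp3 (vertical axis) against the mean log2 signal of 13 T cell markers (horizontal axis). Right, the same for Il2rb probe set 1448759_at and 6 NK cell markers, with 1 point per mouse, circles for young, squares for old, blue for non-arthritic and red for arthritic mice. The young arthritic mice have low Foxp3 at T cell marker signals of 10.22 and 10.25, and the 2 highest Il2rb points are those with NK marker signals of 9.82 and 9.86.

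Across the 10 arrays, which differ in age, arthritis and cell content, Foxp3 went with the brightest Ikzf2 probe set (r = 0.793, and 0.435 after group means were removed), and the 2 bright Ikzf2 probe sets went together (0.891 and 0.839). The dim Ikzf2 probe set 1421643_at, the one that was called, had r = 0.456 with 1437542_at and 0.619 with Foxp3 over the 10 arrays, but -0.512 and -0.635 within groups, so it did not follow them from mouse to mouse. Tnfrsf18 and Tnfrsf4 had r = 0.764 (0.677 within groups). The 2 Il2rb probe sets had r = 0.28 over the 10 arrays but 0.948 within groups, so they went together within groups although their arthritis differences had opposite signs. Il2ra 1420691_at ran opposite to Ikzf2 1437542_at (-0.876 and -0.821 within groups). These are descriptions over 10 mice. Among all kept genes, the values most like those of Ikzf2 were Ms4a6b (r = 0.964) and A630026N12Rik (0.961). Those most like Tnfrsf18 were Gimap4 (0.944) and Pdha1 (0.931), and those most like Tnfrsf4 were Neto1 (0.946) and Map3k10 (0.899). Il2rb (1448759_at) was most like Cd209a (0.958) and Ccl4 (0.943), and Nt5e (1422974_at) most like Pvr (0.961) and Wdpcp (0.891). These partners were picked as the highest of all such correlations over only 10 arrays, with group differences included. No values within groups were computed for them, and nothing is read from them.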

How the data were processed

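Total RNA of 10 spleens was hybridized to 1 array each. The table deposited by the authors gives a log2 signal for each probe set, and the submitters' processing notes name RMA as its source. No version or settings of RMA are given in the sources used here, and no array methods are described in the paper. RMA normalizes arrays to each other and compresses changes of dim probe sets, and the values hold no detection calls. The table held 45101 rows, of which 64 control rows were left out. Of the other 45037 probe sets, 34945 carried 1 gene symbol, 932 several and 9160 none. Only those with 1 symbol were named. Pearson correlations between arrays ranged from 0.981 to 0.997.

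Groups, ages and replicate numbers came from the labels. The limma package, version 3.58.1, was run in R 4.3.3 (lmFit, then eBayes, two-sided), with Benjamini-Hochberg adjustment over all probe sets of the fit and a threshold of 0.05. A fit with 1 mean per group (6 residual degrees of freedom) gave 4 comparisons, and a fit on arthritis status and age in months (7) gave the equal-age difference and the slope. The main fits used 23805 probe sets above their array's median on at least 2 arrays. The dim ones were taken from the same fits of all probe sets. In the fit with 1 mean per group, the p-values reflect how far single mice of a group differ. In the fit on arthritis status and age, they also reflect departures from a straight line in age. In both, eBayes draws the spread of each probe set towards that of the others, and the number of mice limits the precision. The fits were tested on simulated data. Alternatives were another filter, centring, repeated quantile normalization, an intensity trend, the replicate number as a block, non-arthritic mice alone and each array left out. The genes, gene lists and markers were chosen with earlier results of these data known. Named are every probe set of the 8 genes, the 2 genes most like each member with a kept probe set, and, of each list, genes with the smallest p. Figures were drawn with matplotlib 3.10.9.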

Additional observations from a re-analysis of the deposited data

How the results depend on the processing

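For single probe sets of the 8 genes, no alternative turned the direction of a value past the threshold. Settings other than leaving out an array left 480 values on the same side of the threshold or within the spread, weakened 3 and moved 13. Leaving out an array left 905, weakened 17, strengthened 2 and moved 36. Without the filter, 2280 probe sets were called in the old comparison, 3186 in the young one and 5475 at equal age, with 2, 1 and 3 of the regulatory T cell probe sets among them. The stricter filter, above the median on all 10 arrays, gave 3, 2 and 256, and 2 for the slope with age. Centring each array on its median gave 274 at equal age, repeated quantile normalization gave 32, 34 and 177, and an intensity trend gave 7 and 6 in old and young mice and 0 for the slope. Of the calls at equal age, 80.1% were higher in arthritic mice, 66.7% after repeated quantile normalization and 58.7% without the filter, the fit that gave the calls of Foxp3, Ikzf2 and Ikzf4. With only the 6 non-arthritic mice, 0 were called for the slope. The cause of these shifts was not tested. Centring, repeated quantile normalization and the trend called none of the 8 bright regulatory T cell probe sets, like the kept fit. The dim Foxp3 probe set, taken from the fit over all probe sets, stayed called under each of these settings. Its limma adjusted p-values were 0.0192, 0.0231 and 0.0185 at equal age, and 0.0392, 0.032 and 0.0372 in old mice.

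Mice in different groups share only a replicate number. Deviations of same-numbered mice from their group means correlated at -0.525 to 0.356. In a group of 2 mice the deviations mirror each other, so these values cannot show whether the numbers pair the mice. With the replicate number as a block, 0 probe sets were called for arthritis in old or in young mice, 29 at equal age and 0 for the slope. Under this block the old comparison of Foxp3 and of Ikzf4 1460664_at had an adjusted p of 0.071 each over all probe sets, and the young comparison of Ikzf4 1460664_at 0.0892. Leaving out 1 array at a time gave 0 to 2 calls for old against young non-arthritic mice, 0 to 1532 and 0 to 84 for arthritis in old and in young mice, 0 to 55 for the interaction of age group and arthritis, 0 to 872 at equal age and 0 to 1 for the slope. The 1532 calls came without old arthritic replicate 1, and included 1 regulatory T cell probe set (range 0 to 1), the Ikzf2 probe set 1437542_at. Where an array was left out of a group of 2, the lone mouse was assumed to vary like the other groups. The dim probe sets of Foxp3, Il2ra and Ikzf4 limit what these arrays can show of these genes.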
